A study of Mus musculus with 58 samples.

Results

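Apolipoproteins and the enzymes that ride on high-density lipoprotein (HDL) were followed here through 10 genes, Apoa1, Apoa2, Apoa4, Apoa5, Apob, Apoc1, Apoc3, Apoe, Pon1 and Lcat, out of 22180 genes measured on the arrays. The list of symbols was chosen with earlier results of these data known. Each of the 10 had 1 probe cluster that carried its symbol alone, and no filter on low values was applied, so all 10 were measured. The samples were 29 liver tumors and 29 normal livers of adult mice of a mixed FVB/NJ, C57BL/6 and 129/Sv background. All the animals, those that gave normal liver included, had been injected as newborns with adeno-associated virus (AAV), a gene transfer vector whose DNA can insert into the liver genome, and the labels give no uninjected group. Read as spelled, the titles name 39 animals (35 under a looser reading, which left the count of genes called unchanged at 7). Of the 39, 18 gave a tumor and a normal liver and 1 gave 2 tumors. In all, 11 tumors, those 2 included, and 11 normal livers had no partner of the other tissue. Gender is labelled female for 11 tumors and 9 normal livers and male for 17 tumors and 20 normal livers, and some titles carry a mark of -/- or +/- whose locus is not named. The title of normal liver 4, marked +/-, also carries the letters GFP, and that array was used with the other normal livers.

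Apolipoproteins are the protein coats that let blood carry fat. Apolipoprotein B stays on 1 very-low-density lipoprotein (VLDL) particle from its assembly in the hepatocyte to its uptake, whereas the smaller apolipoproteins move between particles, hold them together and switch enzymes and receptors on or off. HDL, built around apolipoprotein A-I, takes cholesterol from tissues, and its passenger enzymes esterify that cholesterol or protect lipids from oxidation. The liver makes most of these proteins, and a hepatocyte is recognised in part by how much of them it transcribes.

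The start of transcription is shown for 4 of the genes, the pair with the strongest decrease in tumors (Pon1 and Apoa5) and a pair with small changes (Apob and Apoe), because tumor and normal liver are compared below at the level of their RNA. The sequences are from RefSeq (GRCm38.p6) and run from 250 bases before to 50 bases after the annotated start, in the direction of the gene. Where several starts are listed (3 for Apoe, 2 each for Apoa5 and Apoa2), only the outermost was used, and windows at the others were not searched. Windows were found for 8 of the 10 genes. Capitals mark a match to 1 of 5 motifs searched on both strands: TATAAA (bound by the TATA-binding protein), CAAAGTCCA (HNF4), GTTAAT (HNF1), TGTTTAC (FOXA) and AGGTCA (nuclear receptors).
Pon1, chr6:5193897-5194196, minus strand: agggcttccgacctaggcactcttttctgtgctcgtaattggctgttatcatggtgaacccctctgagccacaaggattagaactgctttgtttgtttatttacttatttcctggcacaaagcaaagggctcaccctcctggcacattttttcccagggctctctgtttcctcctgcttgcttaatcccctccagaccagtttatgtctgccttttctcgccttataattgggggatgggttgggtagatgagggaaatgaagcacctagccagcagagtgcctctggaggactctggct
Apoa5, chr9:46268358-46268657, plus strand: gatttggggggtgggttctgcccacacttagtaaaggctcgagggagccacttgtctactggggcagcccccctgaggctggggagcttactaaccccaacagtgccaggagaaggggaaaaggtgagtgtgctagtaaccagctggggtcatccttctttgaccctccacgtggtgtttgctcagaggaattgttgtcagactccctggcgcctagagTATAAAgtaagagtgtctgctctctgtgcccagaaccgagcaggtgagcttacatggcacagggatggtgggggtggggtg
Apob, chr12:7977427-7977726, plus strand: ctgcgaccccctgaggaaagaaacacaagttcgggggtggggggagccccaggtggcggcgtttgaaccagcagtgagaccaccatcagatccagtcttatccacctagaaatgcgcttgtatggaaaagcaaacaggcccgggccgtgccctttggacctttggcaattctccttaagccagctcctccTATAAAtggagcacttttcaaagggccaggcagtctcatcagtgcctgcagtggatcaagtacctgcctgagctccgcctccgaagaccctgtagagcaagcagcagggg
Apoe, chr7:19699139-19699438, minus strand: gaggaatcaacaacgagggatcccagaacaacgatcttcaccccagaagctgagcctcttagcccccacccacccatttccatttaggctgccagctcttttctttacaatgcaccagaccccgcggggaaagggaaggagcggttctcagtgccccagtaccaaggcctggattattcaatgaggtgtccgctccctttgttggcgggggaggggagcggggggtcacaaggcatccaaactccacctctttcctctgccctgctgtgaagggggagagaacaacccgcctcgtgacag
TATAAA occurred in Apoa5, 31 bases before the annotated start, and in Apob, 60 bases before it, and 14.2% of 27025 promoter windows of this length hold it. Apart from these, the 8 windows held a single match, AGGTCA on the minus strand of Apoa2, a motif found in 15.98% of windows. None of the 8 held the HNF4, HNF1 or FOXA letters, which 0.474%, 7.22% and 3.52% of windows hold. The genes also sit in neighbourhoods: Apoa1, Apoc3, Apoa4 and Apoa5 follow each other on chromosome 9, and Apoc1 lies beside Apoe on chromosome 7.

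Array medians lay between 6.72 and 7.15 on the log2 scale, and some arrays stood apart from their labels. Tumor 9 resembled the other arrays least, with a mean correlation of 0.873. In it 9 hepatocyte markers averaged 7.76, against 12.70 to 13.31 in the other 28 tumors, and 5 B and plasma cell markers averaged 12.22, against 6.62 to 10.13. Its B cell genes Ms4a1, Cd79a, Blk and Cr2 stood at 11.88, 11.50, 11.16 and 10.19, while albumin (Alb) stood at 10.47, against 13.29 or more in each other tumor. Normal liver 27 was closer to the tumor median than to the normal median for 87.2% of 437 genes that changed at least 2-fold, against 3.66% to 54.2% in the other normal livers. Its Cyp11a1 level was 11.39, inside the range of the tumors and above the 6.18 to 6.97 of the other normal livers. The 54.2% was that of normal liver 16, for which most of the 437 genes thus also lay nearer to the tumor median. Conversely, 4 tumors were nearer to the normal median for most of these genes (the lowest share was 6.64%). Neither these tumors nor normal liver 16 were left out on that ground. The sex-linked genes of 7 arrays, 4 tumors and 3 normal livers, went against the gender label. Where tumor 9 or normal liver 27 changes which of the 10 genes are called in tumors, the value or count without it is given beside it. For other gene lists the counts without tumor 9 are given where they differ.

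Tumors had less RNA of most of these genes. In a limma fit of all 58 arrays with the animal as a random block, 7 of the 10 were lower in tumors at an adjusted p under 0.05 and none was higher. Among all 22180 genes 14.3% were called lower and 17.9% higher, with p adjusted by the Benjamini-Hochberg method over all of them. Because the 10 were chosen with earlier results of these data known, such shares stand beside the counts as a description and not as a test. Read by size as well as by the test, Pon1 and Apoa5 were lost (called, with a log2 change of -1 or below, a step that 0.947% of genes passed). Lcat, Apoa1, Apoa2, Apoc3 and Apoe were reduced (called, with a smaller decrease), Apoc1 was kept (not called, with a 95% interval inside -0.5 to 0.5), and Apoa4 and Apob were undecided. In tissue RNA, fewer cells that make a transcript and less of it per cell cannot be told apart.

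**Figure D1:**
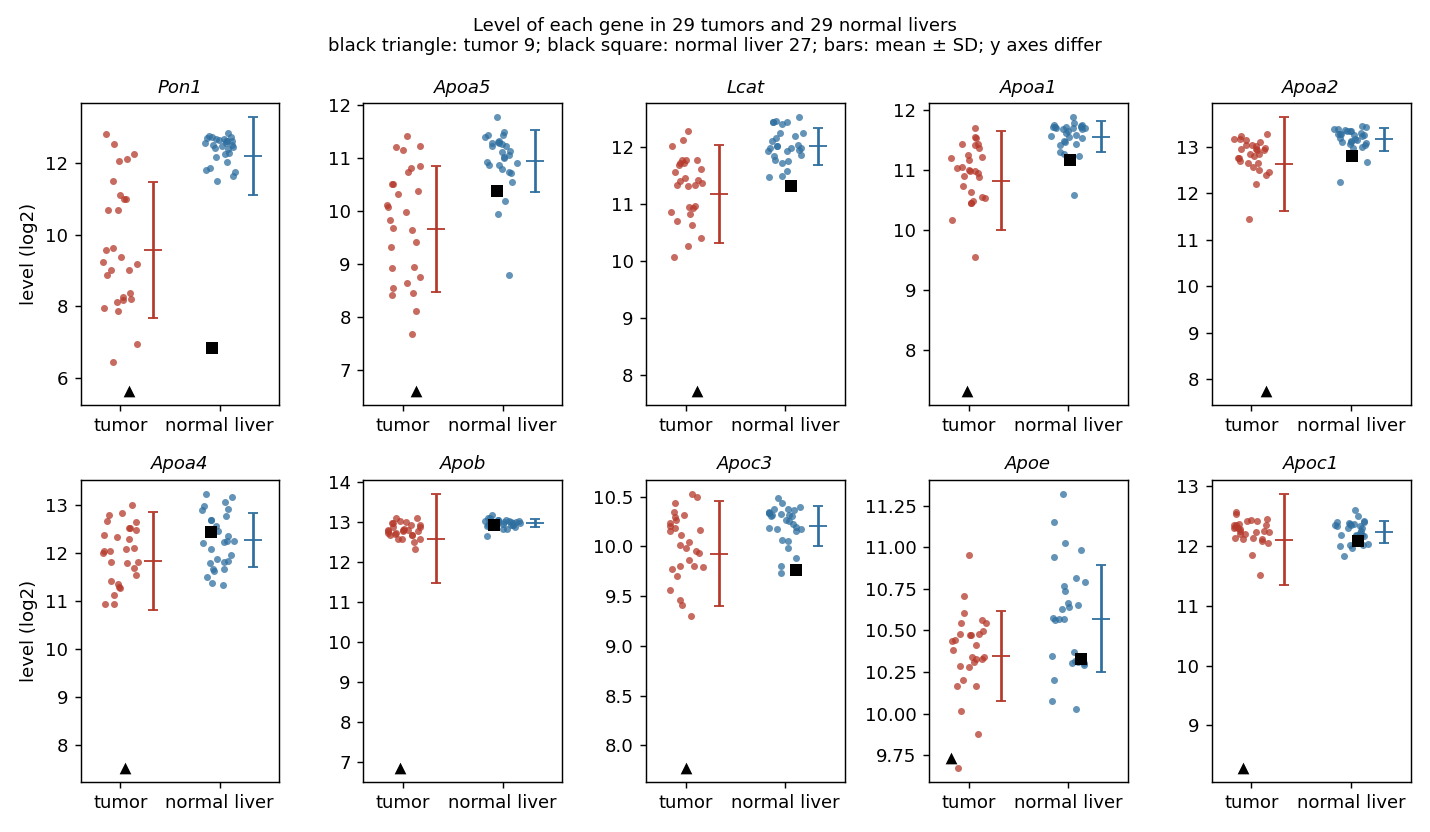
Level of each gene (y axis, log2, scale differs by panel) in 29 tumors (left, red) and 29 normal livers (right, blue), 1 point per array, with the mean ± SD beside the points. Pon1 ranged from 5.65 to 12.80 in tumors, tumor 9 (black triangle) lay lowest in every panel except that of Apoe, and normal liver 27 (black square) lay among the tumors for Pon1.

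Pon1 encodes paraoxonase 1, an HDL-bound esterase that hydrolyses oxidised lipids and organophosphates. Its level in tumors had a lowest value of 5.65, a median of 9.23 and a highest of 12.80, and in normal livers a lowest of 6.85, a median of 12.48 and a highest of 12.83. The ranges overlapped because of normal liver 27 and a few tumors: 2 tumors lay below the lowest normal liver, and 24 of 29 did once normal liver 27, at 6.85, was set aside (the next lowest normal liver had 11.49). The mean was 9.57 ± 1.88 in tumors and 12.18 ± 1.09 in normal livers (SD, n = 29 each). The change was -2.62 (SE 0.37, 95% interval -3.37 to -1.88, limma adjusted p = 1.24e-07), which is 6.16-fold lower. Without normal liver 27 it was -2.80, and without tumor 9 it was -2.47. Within the 18 animals that gave both tissues the tumor was lower in 17, with a median difference of -3.24 and differences of -7.19 to 0.20, and in 15 of them by at least 1. The animal of tumor 1 was the exception.

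Lcat encodes lecithin-cholesterol acyltransferase, the plasma enzyme that esterifies cholesterol on HDL. Tumors ran from 7.72 through a median of 11.38 to 12.30, and normal livers from 11.33 through 11.99 to 12.53. The lowest normal liver was again number 27, and 11 tumors lay below it, or 18 without it. The mean was 11.18 ± 0.87 in tumors and 12.02 ± 0.32 in normal livers, a change of -0.85 (SE 0.16, limma adjusted p = 3.42e-05) or 1.80-fold lower. The tumor was the lower sample in 17 of 18 pairs.

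Apoa1, the scaffold protein of HDL, was lower in the tumor of all 18 pairs, with differences between -4.42 and -0.0011. Its tumor levels ran from 7.32 through a median of 10.99 to 11.70, and its normal liver levels from 10.59 through 11.65 to 11.88. The groups overlapped, with 21 tumors inside the normal range, yet 28 of 29 tumors lay below the normal median. The low end of that range was normal liver 21 alone, with 8 tumors below it. Below the second lowest normal liver (11.17) lay 19 tumors. The change was -0.74 (SE 0.15, limma adjusted p = 0.000103), or 1.67-fold lower.

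Apoa2, the second most abundant HDL apolipoprotein, had tumor levels from 7.74 through a median of 12.85 to 13.28, and normal liver levels from 12.25 through 13.24 to 13.46. Only 3 tumors left the normal range, all downward, although 28 of 29 lay below the normal median. The low end of that range was normal liver 16 alone. Below the second lowest normal liver (12.68) lay 9 tumors, or 13 after each array was centred on its median. The change was -0.54 (SE 0.18, limma adjusted p = 0.0173). Tumor 9 carried part of this: without it the change was -0.36 (SE 0.08, limma adjusted p = 0.000327). Thus Apoa2 had a shallow decrease spread over nearly all tumors, whereas Pon1 had a deep one.

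Apoa5, a minor apolipoprotein of triglyceride-rich particles that promotes triglyceride clearance, was the other gene read as lost. It had a lowest level of 6.60, a median of 9.84 and a highest of 11.42 in tumors, and of 8.79, 11.06 and 11.78 in normal livers. Most tumors stayed above the lowest normal liver, number 7, which stood well below the next one (9.95), so 8 tumors lay under the lowest normal liver and 15 under the second lowest. The mean was 9.67 ± 1.20 in tumors and 10.95 ± 0.58 in normal livers, a change of -1.29 (SE 0.23, 95% interval -1.75 to -0.82, limma adjusted p = 1.29e-05) or 2.44-fold lower. The tumor was lower in 15 of 18 pairs. The pair with the opposite sign at its largest (1.60) was that of normal liver 7.

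Apoa4, which sits beside Apoa5 in the genome and encodes an apolipoprotein of triglyceride-rich particles and HDL, varied widely in tumors (7.53 to 13.01, median 12.03) and in normal liver (11.33 to 13.23, median 12.24). Its change of -0.44 (SE 0.20, 95% interval -0.84 to -0.04) missed the threshold (limma adjusted p = 0.0840), and the tumor was lower in 11 of 18 pairs. Without tumor 9 it was -0.27 (95% interval -0.55 to 0.0025, limma adjusted p = 0.119). Apoc3, an inhibitor of triglyceride clearance and the neighbour of Apoa1, ran from 7.77 through 10.02 to 10.53 in tumors and from 9.74 through 10.27 to 10.49 in normal livers. Its decrease was small, with a change of -0.28 (SE 0.10, limma adjusted p = 0.0240). Within this gene cluster on chromosome 9 the changes thus lay between -1.29 for Apoa5 and -0.28 for Apoc3.

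With all 58 arrays Apoc1, a small apolipoprotein of HDL and VLDL that inhibits lipases and cholesteryl ester transfer, was the single gene read as kept. It had a median of 12.25 in tumors (8.29 to 12.58) and of 12.25 in normal livers (11.84 to 12.60), and 27 of 29 tumors lay inside the normal range. The change was -0.13 (95% interval -0.41 to 0.14, limma adjusted p = 0.478). Without tumor 9 it was 0.01, with an interval of -0.09 to 0.11. The tumor was the lower sample in 7 of 18 pairs. The reading depended on the fit: in the 18 pairs alone the interval was -0.63 to 0.28, which is undecided, and Apoe was the gene read as kept (-0.35 to 0.02). Other genes were also read as kept in some fits. Apoc3 was in the animals without a pair, with or without normal liver 27, in the 17 pairs without that of tumor 9, and without the 7 arrays against their gender label. Apob was in both sets of animals without a pair, Apoe in the 17 pairs, and Apoa4 with array weights.

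Apoe, the ligand for receptors that clear remnant particles, is also made outside hepatocytes. Tumors ran from 9.67 through a median of 10.38 to 10.95, and normal livers from 10.02 through 10.57 to 11.32, with 25 tumors inside the normal range. The change of -0.22 (SE 0.07, limma adjusted p = 0.0179), or 1.17-fold lower, was smaller than the SD of either tissue, at 0.27 in tumors and 0.32 in normal livers. Apoe was also the gene least altered in tumor 9, where it stood at 9.73 while the other 9 genes were lowest there of all 29 tumors. No tumor was 1 or more below the normal median of Apoe.

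Apob, the structural protein of VLDL, had the narrowest normal range, 12.64 to 13.17 with a median of 12.97. Tumors other than tumor 9 ran from 12.31 to 13.11, and tumor 9 had 6.85. The mean was 12.58 ± 1.12 in tumors and 12.97 ± 0.10 in normal livers, and the change of -0.40 (SE 0.20) was not called (limma adjusted p = 0.114). Without tumor 9 the mean in tumors was 12.79 ± 0.19 and the change was smaller, at -0.18, but its SE was 0.04 and it was called (limma adjusted p = 0.000549). With that array left out 8 of the 10 genes were called lower, where 15.1% of all genes were. When each of the 58 arrays was left out in turn, tumor 9 was the only one whose removal changed a call among the 10 genes.

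**Figure D2:**
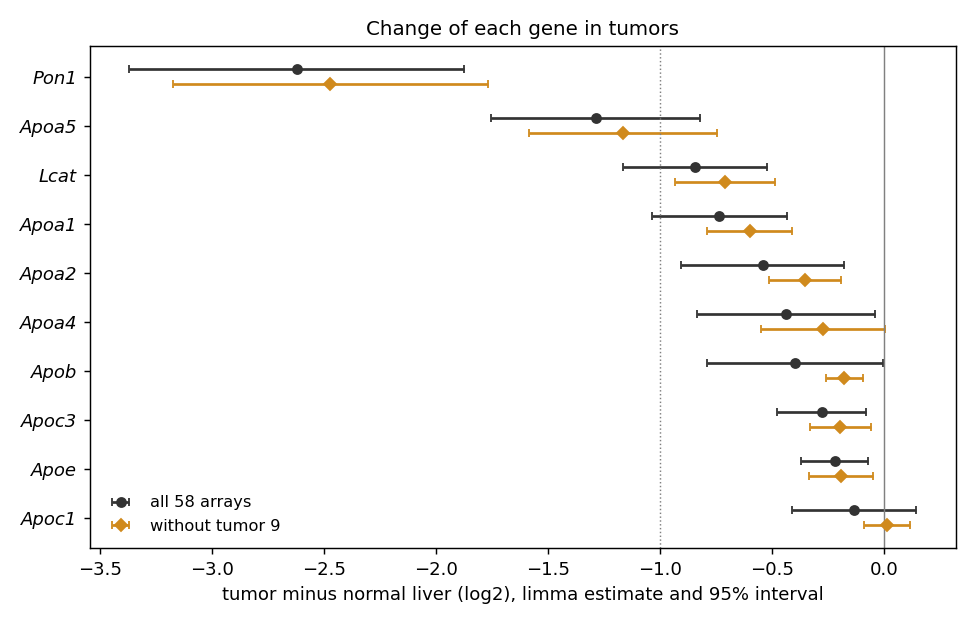
Change of each gene in tumors relative to normal liver (x axis, log2) as the limma estimate with its 95% interval, for all 58 arrays (black circles) and without tumor 9 (orange diamonds), with the solid line at 0 and the dotted line at -1. Pon1 lies at -2.62 and Apoa5 at -1.29, while Apoc1 lies at -0.13 with tumor 9 and at 0.01 without it.

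A second fit took the 18 pairs by themselves and gave each animal its own term. Pon1 (-2.87), Apoa5 (-1.39), Lcat (-0.94) and Apoa1 (-0.81) were called, 4 of 10 where 8.13% of all genes were called lower. Apoa2 (-0.63), Apoc3 (-0.32) and Apoe (-0.17) were not, with limma adjusted p of 0.119, 0.114 and 0.197. With tumor 9 included, the decreases of Apoa2 and Apoc3 were no smaller there than over all 58 arrays. Without tumor 9 they were slightly smaller, at -0.337 and -0.193 in 17 pairs against -0.356 and -0.198 over 57 arrays. In the 17 pairs without that of tumor 9 the calls were Pon1, Apoa5, Lcat, Apoa1, Apoa2 (p = 0.00702 after adjustment by limma) and Apob (0.0352), 6 of 10 against 9.15% of all genes. The 11 tumors and 11 normal livers without a partner form a separate set of animals. It includes both tumors of the animal that gave 2, and the fits of this set took arrays as independent. There Apoa5 (-1.11) and Lcat (-0.67, limma adjusted p = 0.0497) were called, 2 of 10 where 3.17% of all genes were. Pon1 had a change of -2.17 with a limma adjusted p of 0.0584. Leaving normal liver 27 out of that set brought Pon1 to -2.68 (limma adjusted p = 0.00369) and added Apoe, for 4 of 10 against 5.05% of all genes.

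**Figure D3:**
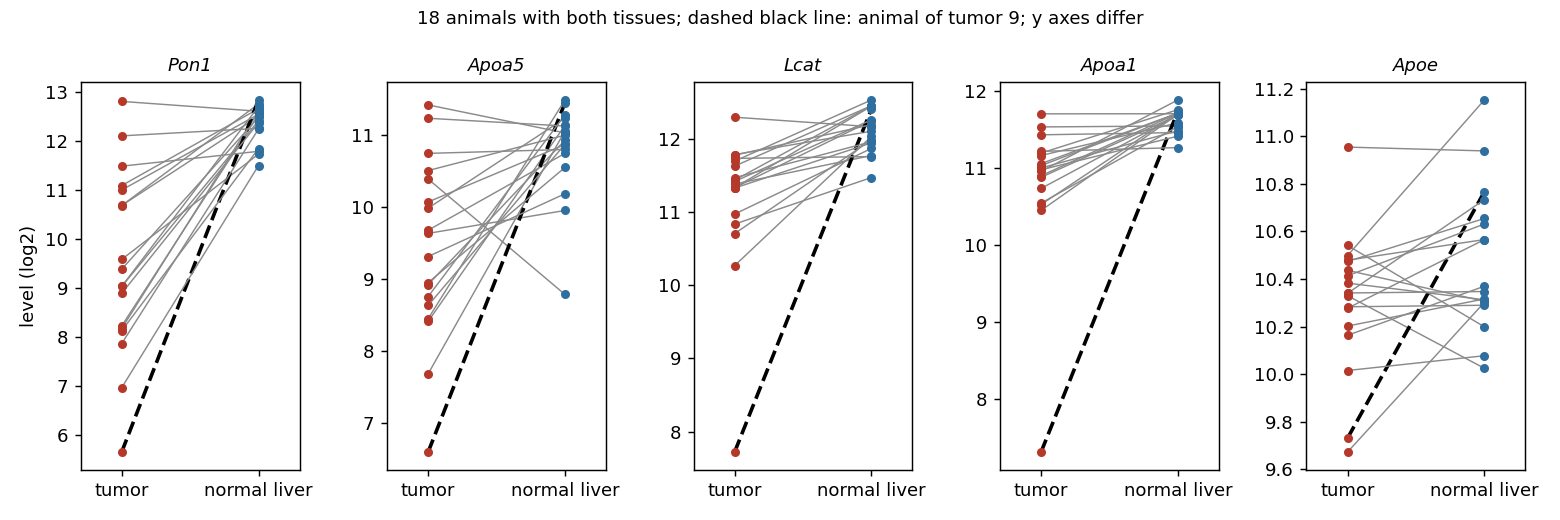
Level (y axis, log2, scale differs by panel) in the tumor (left) and the normal liver (right) of the 18 animals that gave both, joined by a line, for Pon1, Apoa5, Lcat, Apoa1 and Apoe. The tumor was lower in 17, 15, 17, 18 and 13 of the 18 animals in that order of genes, and the dashed line is the animal of tumor 9.

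Whether the genes fell unequally was tested on the same pairs, as the difference between the tumor changes of 2 genes in each animal, with exact two-sided sign-flip tests adjusted over the 45 pairs of genes. Of these, 25 differed, and 31 without the pair of tumor 9. Pon1 fell more than each of the other 9 genes, from Apoa5 (by 1.47 ± 1.14, SD, n = 18, exact adjusted p = 0.000343) to Apoe (by 2.70 ± 1.82, exact adjusted p = 0.000215). Apoa5 fell more than Apoa4, Apob, Apoc1, Apoc3 and Apoe. The exact adjusted p for Apoa5 against its neighbour Apoa4 was 0.00845, with a mean gap of 0.84.

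Between the HDL scaffold gene and the gene of the esterifying enzyme no difference passed the test. Apoa1 and Lcat differed by 0.13 ± 0.43 over the 18 pairs (exact adjusted p = 0.272). Each of them fell more than Apoc1, Apoc3 and Apoe. Apoa1 fell by 0.18 ± 0.51 more than Apoa2, the other main HDL apolipoprotein (exact adjusted p = 0.178), and by 0.27 ± 0.38 more without the pair of tumor 9 (n = 17, exact adjusted p = 0.0194).

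Counted tumor by tumor, the number of genes that stood 1 or more (log2) below their normal median was 0 in 6 tumors, 1 in 3, 2 in 8, 3 in 5, 4 in 4 and 5 in 2, and it was 9 in tumor 9. Among normal livers 25 had none and 4 had 1. By gene, 23 tumors passed that step for Pon1, 16 for Apoa5, 11 for Lcat, 9 for Apoa1, 4 for Apoa4, 3 for Apoa2, 1 each for Apob, Apoc1 and Apoc3, and none for Apoe. Over all genes the median count was 0, and 0.568% of genes reached 20 tumors. The 4 tumors nearer to normal liver for most changed genes, 1, 24, 20 and 25, had Pon1 at 12.80, 12.53, 11.48 and 12.25, of which the value of tumor 20 lay just under the second lowest normal liver (11.49). At the other end tumor 23 had Pon1 at 6.46, Apoa1 at 9.56 and Lcat at 10.08, the lowest levels outside tumor 9. The 2 tumors of 1 animal, 22 and 26, had Pon1 at 9.18 and 8.26 and Apoa5 at 9.41 and 8.12, while their Apoe levels were 10.56 and 10.55.

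**Figure D4:**
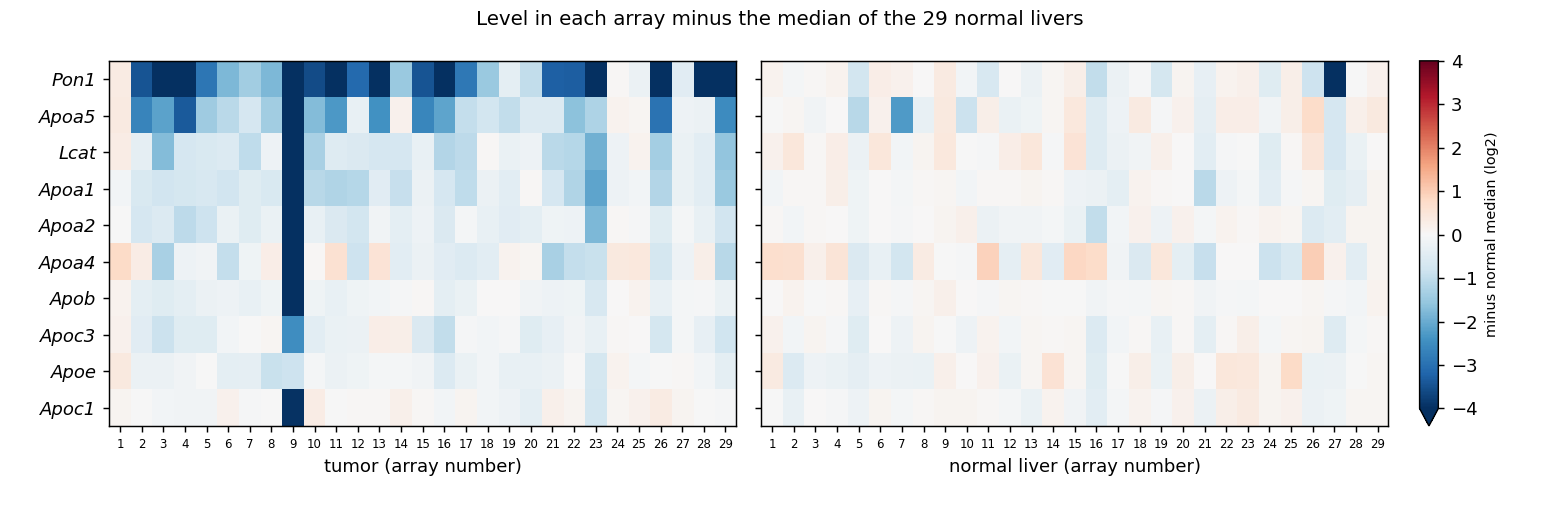
Level of each gene (rows, ordered by change) in every array (columns) minus the median of the 29 normal livers (colour, log2, cut at -4), with tumors on the left and normal livers on the right. Pon1 and Apoa5 are blue in most tumors (23 and 16 of 29 at -1 or below), tumor 9 is blue for every gene and palest for Apoe, and normal liver 27 is dark only for Pon1.

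Spread among arrays was compared for each gene. In a limma fit of each array's absolute distance from its group median, the distance was larger in tumors for Pon1 (by 1.06, limma adjusted p = 0.0345) and Apoa5 (by 0.59, limma adjusted p = 0.0421), 2 of 10 where 1.04% of all genes were called wider. The other 8 did not pass. Apoa5 was not called after centring (limma adjusted p = 0.0546) or without tumor 9 (0.0528), while Pon1 without tumor 9 was (0.0355, where 1.14% of genes were). Without tumor 9 and normal liver 27 both were (0.000321 for Pon1 and 0.0413 for Apoa5, where 1.56% of genes were). Apoe was the gene with the reverse sign, its distance being 0.06 smaller in tumors (limma adjusted p = 0.751).

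The genes tended to be low in the same tumors. Over the 28 tumor-bearing animals, with the pair of tumors of 1 animal averaged, Spearman's rho between 2 genes had a median of 0.51 over 45 relations, and 32 of them passed a permutation test adjusted over the 45 (100000 resamples). Without tumor 9 the median was 0.45 and 24 passed. No such median or count was computed over pairs of other genes. Whether the listed genes vary together more closely than other genes do in these tumors was not tested. By rho, the closest relations without tumor 9 were those of Apoa1 with Lcat (rho 0.79, r 0.78, permutation adjusted p of 0.00045 and 0.000225) and of Pon1 with Apoa5 (rho 0.74, r 0.71, permutation adjusted p of 0.0006 and 0.000375). By r, Apob with Lcat was as close (0.78), and Apoa2 with Apob (0.76) and with Apoc1 (0.74), among others, exceeded Pon1 with Apoa5. With all 28 animals these were rho 0.81 and r 0.92 for Apoa1 with Lcat, and rho 0.76 and r 0.76 for Pon1 with Apoa5. Leaving out the 2 animals farthest from the median of Apoa1 gave r of 0.72 for Apoa1 with Lcat. Leaving out the 2 farthest from that of Apoa5 gave 0.71 for Pon1 with Apoa5. Pearson's r rested more on tumor 9, with 45 relations passing with it and 28 without it.

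**Figure D5:**
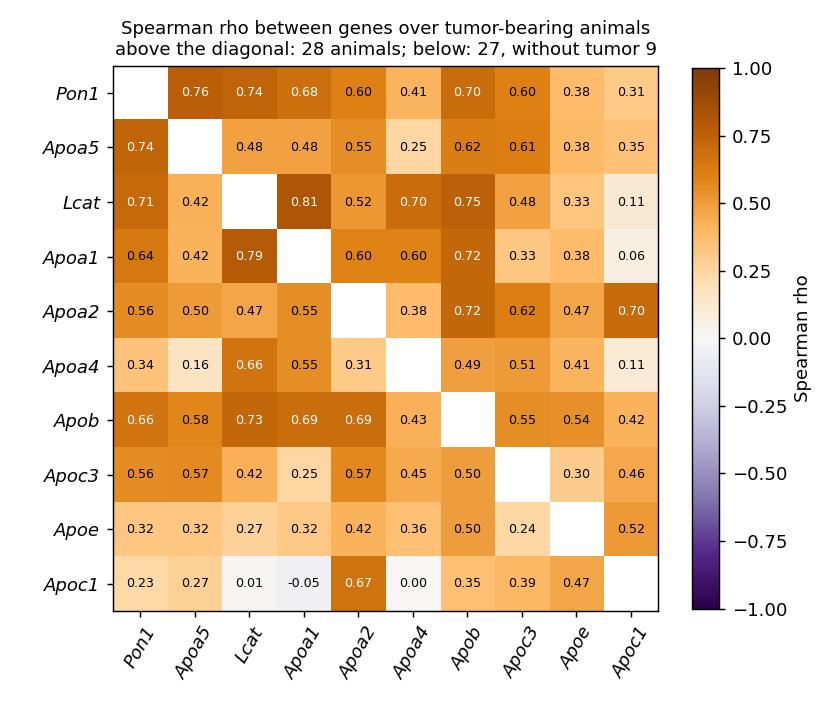
Spearman's rho between each pair of genes over 28 tumor-bearing animals (above the diagonal) and over 27 without tumor 9 (below it), as number and colour, with genes ordered by change. Without tumor 9, rho is 0.79 for Apoa1 with Lcat and 0.74 for Pon1 with Apoa5, and near 0 for Apoc1 with Apoa1 (-0.05).

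Apoc1 ranked apart. Without tumor 9 its rho was -0.05 with Apoa1, 0.01 with Lcat and 0.00427 with Apoa4, and its relation with Apoa2 was the closest (rho 0.67, permutation adjusted p = 0.0012). Apoc1 and its neighbour Apoe had a rho of 0.47 (permutation adjusted p = 0.0321). Apoe was also tied loosely to some genes, with rho 0.24 for Apoc3 and 0.27 for Lcat. Its rho with Apob was 0.50 (permutation adjusted p = 0.0211).

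Over the 28 tumors without tumor 9, the genes outside the list whose levels followed each member most closely were named by Pearson's r as a description, a choice added after the values over all 29 tumors were seen. For Pon1 these were Dpp4 (0.94), Slco1b2 (0.94), a hepatocyte uptake transporter, and Cyp2c23 (0.91). For Apoa5 they were Hint2 (0.83), Cyp2e1 (0.81) and Slc25a21 (0.80). Apoa1 was followed by Apoh, C1s1 and F7 (0.83 each), which encode plasma proteins, Lcat by Dpys, Col18a1 and Serpinc1 (0.86 to 0.85), and Apob by Serpinc1, Hebp1 and Fads1 (0.89 to 0.85). The closest were Msh3 for Apoa2 (0.83), Aptx for Apoa4 (0.79), Gckr for Apoc1 (0.78) and Pts for Apoc3 (0.88). Apoe had the loosest followers (Clec14a 0.74, N4bp2l1 0.69, Mir1898 0.67). With tumor 9 included, the closest were Slco1b2 for Pon1 (0.93), Habp2 for Apoa1 (0.93), Pzp for Apoa2 (0.97), F10 for Apoa4 (0.92), Hint2 for Apoa5 (0.84), F2 for Apob (0.99), Azgp1 for Apoc1 (0.97), Chdh for Apoc3 (0.94), Abcc6 for Apoe (0.70) and Serpinc1 for Lcat (0.93). For Apoa1, Apoa2, Apoa4, Apob, Apoc1 and Apoc3 none of the closest 3 was shared with and without tumor 9.

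Labelled sex was set against the tumor change in 57 arrays. No member passed the limma test of a difference in change between females and males, and 0.0% of all genes did (507 and 497 genes had an unadjusted p under 0.05 in the lower and higher direction). The widest gap was that of Apoa5, with a change of -0.65 in females and -1.71 in males, a difference of 1.06 (95% interval 0.13 to 2.00, limma adjusted p = 0.949). Within females Pon1 was called lower (-2.19, limma adjusted p = 0.0389), 1 of 10 where 0.685% of genes were. Within males Pon1 (-2.78), Apoa5, Lcat, Apoa1, Apoa2 and Apoe were, 6 of 10 where 14.5% of genes were. The call in females was lost without the 7 arrays against their gender label (change -1.75, 95% interval -3.10 to -0.40, limma adjusted p = 0.329, with 0.0271% of genes called). Without tumor 9 and normal liver 27 it was joined by Apoa1 and Lcat (3 of 10, where 1.5% of genes were). In normal liver no member passed the test of females against males, and 0.0496% of genes did. Pon1 averaged 12.38 ± 0.44 in 9 female and 12.09 ± 1.28 in 20 male normal livers, and 12.36 ± 0.35 in the 19 males without normal liver 27.

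The -/- and +/- marks were compared in 9 male normal livers. Normal livers 26 (+/-) and 27 (-/-) carry the same animal number in their titles and were taken as different animals because their marks differ, so whether the arms share an animal is not settled by the labels. By limma 0.0% of genes were called (589 lower and 872 higher at an unadjusted p under 0.05), and so no member was. Pon1 stood at 12.25, 12.59, 12.62 and 6.85 in the 4 livers marked -/- and at 12.61, 12.65, 12.24, 12.70 and 11.64 in the 5 marked +/-. The low value is that of normal liver 27, and the difference of -1.29 became 0.12 without it. Lcat was 0.56 lower in -/- livers (95% interval -0.98 to -0.14, limma adjusted p = 0.698).

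Other genes of lipoprotein metabolism were read from lists by role, to be set against the 14.3% of all genes called lower and the 17.9% called higher. Of 9 further apolipoproteins measured, 2 were called lower and 1 higher in tumors, and 3 and 2 without tumor 9. Apom, which carries sphingosine 1-phosphate on HDL, averaged 9.03 ± 0.85 in tumors and 10.46 ± 0.57 in normal livers, a change of -1.43 (limma adjusted p = 3.24e-09). Apon had a change of -0.69 and Apoo, which encodes a mitochondrial protein, of 0.34. Of 11 genes of HDL proteins and HDL remodelling 3 were lower and 2 higher, and 3 and 3 without tumor 9. Saa4, a constitutive serum amyloid A carried on HDL, had a change of -2.57 (limma adjusted p = 1.18e-07) and Pltp, the phospholipid transfer protein, of -0.74. Scarb1, the receptor that takes cholesterol from HDL, rose by 0.82 (limma adjusted p = 1.22e-05).

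Of 11 genes for assembly and secretion of apolipoprotein B particles 5 were lower and 1 higher. Ces1d, a hepatic carboxylesterase, changed by -2.29 (limma adjusted p = 1.29e-08). A1cf, the cofactor of Apob messenger RNA editing, changed by -0.97. Dgat1, an acyltransferase that makes triglyceride, rose by 1.30 (limma adjusted p = 2.55e-09). Among 8 receptor and uptake genes 2 were lower, among them Lrp1 (-0.38), and 3 higher, among them the VLDL receptor gene Vldlr (0.74) and Sdc1 (0.78), which encodes a heparan sulfate proteoglycan that binds remnants. Among 5 genes of triglyceride lipase control 1 was lower, the lipoprotein lipase inhibitor gene Angptl4 (-0.62), and 2 higher. These were lipoprotein lipase itself, Lpl, at 11.05 ± 0.86 in tumors and 9.62 ± 1.07 in normal livers (1.42, limma adjusted p = 2.58e-06), and its endothelial anchor Gpihbp1 (0.39).

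Of 16 transcription factors known to act at apolipoprotein genes 7 were lower and 1 higher, with a median change of -0.27 where the median of all genes was -0.02. Mlxipl, a carbohydrate-responsive factor, changed by -1.11 (limma adjusted p = 7.42e-05), the bile acid receptor gene Nr1h4 by -0.95 (2.96e-06) and Nr2f2 by -0.45 (0.000264). Hnf4a, the hepatocyte nuclear factor that acts at many of these promoters, changed by -0.33 (limma adjusted p = 0.0464), and by -0.21 without tumor 9 (0.0257), and was named after its value was seen. The counts depended on the setting, with 7 lower and 2 higher without tumor 9, 8 and 0 after centring of each array on its median and 10 and 0 after quantile normalization. They were 4 and 1 in the 18 pairs and 5 and 1 in the 17 pairs without that of tumor 9. The 1 that rose in the deposited values with all arrays was Foxo1 (0.25).

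Cell type markers moved with tissue as well, and their part in these results was not tested. Hepatocyte markers averaged 12.70 to 13.31 in tumors other than tumor 9 and 12.72 to 13.33 in normal livers. Of the 9 measured, 2 (Fgg and Rbp4) were lower and none higher with all arrays, and 6 were lower and 1 higher without tumor 9. In the 18 pairs 0 were lower, and in the 17 pairs without that of tumor 9 it was 1 lower and 1 higher. Of 15 macrophage markers 5 were lower, among them the Kupffer cell genes Clec4f (-2.06) and Vsig4 (-2.37), and 4 higher. Sinusoidal endothelial markers had 5 of 10 lower (Clec4g -2.03, Stab2 -1.01) and 2 higher (Flt4 1.00), and stellate cell and fibroblast markers 4 of 10 lower (Ecm1 -1.22) and 3 higher. Of 7 cholangiocyte markers 4 were lower, of 9 T and natural killer cell markers 2 were higher, and none of 5 B and plasma cell or 6 neutrophil markers was called with all arrays. Without tumor 9, 1 T and natural killer cell marker was lower and 1 higher, and 1 B and plasma cell marker was lower.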

How the data were processed

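Total RNA from 29 liver tumors and 29 normal livers was labelled and hybridised to Affymetrix whole-transcript arrays, per the labels' protocols. The deposited values are log2 intensities. The submitters' processing notes name Expression Console (Affymetrix) as the authors' software, and its version and settings were not given in the sources read. Of 41345 probe clusters, 23521 carried 1 symbol, and for symbols with several the brightest was kept, which left 22180 genes with no filter on low values. No further normalization was applied.

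Groups came from the tissue label and pairs from animal titles. limma 3.58.1 in R 4.3.3 (lmFit, duplicateCorrelation with the animal as block, within-animal correlation 0.145, eBayes with trend) gave changes, and p-values were adjusted by Benjamini-Hochberg over 22180 genes. Tumor and normal liver of an animal deviated together with a median r of 0.241, above 0.1 in 15 of 18 pairs. The fits were tested on simulated data. The number of arrays limits precision. The members and gene lists were chosen with earlier results of these data known. Named list genes were up to 3 with the smallest adjusted p and the 1 with the largest change in each list, and the 3 most alike genes were taken per member by Pearson's r over the 29 tumors. Alternatives were centring, quantile normalization, array weights, pairs alone, unpaired animals alone and each array left out. The fits of unpaired animals alone used no block. The alternatives that drop normal liver 27, the pair of tumor 9 or both arrays were chosen after seeing the data.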

Additional observations from a re-analysis of the deposited data

Results flagged for a closer look

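The 10 genes were each tested in the -/- male, +/- male and female normal livers (4, 5 and 9 arrays), which gave 30 sets of values. Of these sets, 4 held an array whose gap to its neighbour was large for the set's range (Dixon's test), where chance gives about 5% of sets. The sets share arrays and are not independent. In the -/- male normal livers, normal liver 27 had Pon1 at 6.85 and the next lowest was 12.25, and normal liver 20 had the highest Apob, 13.01, against 12.93 for the next. In the female normal livers, number 16 was lowest for Apoa2, at 12.25 against 13.05 for the next, and for Lcat, at 11.47 against 11.99. In normal livers 27 and 16, 87.2% and 54.2% of the 437 genes that changed at least 2-fold also lay nearer to the tumor median than to the normal median.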

How the results depend on the processing

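The count of genes called lower, 7, stayed within 7 and 8 when each array was left out in turn, and none was called higher in any setting run. It was 4 when a replicate block for the animal was fitted to the 18 pairs, 2 in the animals without a pair, and 4 in those without normal liver 27, fits with fewer arrays. In the 18 pairs Apoa2, Apoc3 and Apoe lost their calls, in a fit that changed the block and left out 22 arrays at once. With all 58 arrays and no block the count was 7. Without the 7 arrays against their gender label it was 6, Apoc3 being lost (limma adjusted p = 0.0756). The sign of Apoc1 turned without tumor 9 (0.012, and 0.011 to -0.15 over the arrays left out in turn), without tumor 9 and normal liver 27 (0.0072) and in 17 pairs without that of tumor 9 (0.054), and it was not called in any of them. The genes with wider spread, 2, were 1 after centring and 1 without tumor 9. The genes called in females, 1, were 0 without the 7 arrays against their gender label and 3 without tumor 9 and normal liver 27. Pearson relations that passed, 45, were 28 without tumor 9. Among changes of single genes under the alternatives, 177 kept their direction and side of the threshold, 14 lost a call, 5 gained one and 4 turned sign. Counts of tumors below the lowest normal liver moved by more than 1.5 times in 8 cases and by less in 22. The cause was not tested except where an array is left out. Brightness over background is not known from the deposited values, so what dim signal limits cannot be given.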
